A study of Homo sapiens with 6 samples.

Results

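The report concerns 34 genes of the autophagy machinery, the p53-linked modulators TP53INP1 and DRAM1 among them, in HCT116 cells, an established human colorectal carcinoma line. The genes were taken by name, and a gene's data were the probe sets, the short stretches of transcript that the array reads, whose only annotated gene symbol was that gene once old aliases had been updated. All 34 were measured, among 17841 genes tested. Expression was read on 6 Affymetrix Human Exon 1.0 ST arrays in 3 groups of 2 arrays, and the sample titles name the cells HCT116 +/+. The first group had received Nutlin-3 (written Nutlin 3R in the labels), a small molecule that keeps MDM2 from binding p53. The second had received 5-fluorouracil (5FU), a pyrimidine analogue that disturbs thymidylate synthesis and RNA. The third was the control, whose treatment the labels give as none and the design text as DMSO. Cells were collected after 12 h, no dose was found in the labels or the design text, and the labels do not name the gene behind +/+. All groups come from a single line, and nothing states whether replicates were grown separately. The p-values therefore measure only the spread between these arrays, which may be technical.

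Autophagy encloses cytoplasm in a double membrane, the autophagosome, and delivers it to the lysosome. The ULK1 kinase complex starts the process, a lipid kinase complex around BECN1 marks the membrane, ATG9 and ATG2 proteins supply lipid, and a pair of ubiquitin-like conjugation systems attach ATG8 proteins such as LC3B to it. The tumour suppressor p53 is known to switch on DRAM1, which encodes a lysosomal membrane protein, and TP53INP1, which encodes a stress protein that can bind ATG8 proteins.

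TP53INP1 was the member that rose under both drugs. DRAM1 was higher in all treated arrays than in either control array without passing the adjusted test. The genes of the autophagosome machinery itself lay within small differences of control. Of the 34 members, 1 was called higher in Nutlin-3 arrays than in control (limma with Benjamini-Hochberg adjusted p below 0.05 over all genes), and 0 were called lower. Of all genes tested, 1.22% were called, 0.359% higher and 0.858% lower. Likewise 1 was called higher and 0 lower in 5FU arrays, where 0.448% of all genes were called, 0.331% higher and 0.118% lower. Between the drugs limma called 0 of the 34, with 2 at an unadjusted p below 0.05, where 0.633% of all genes were called.

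**Figure D1:**
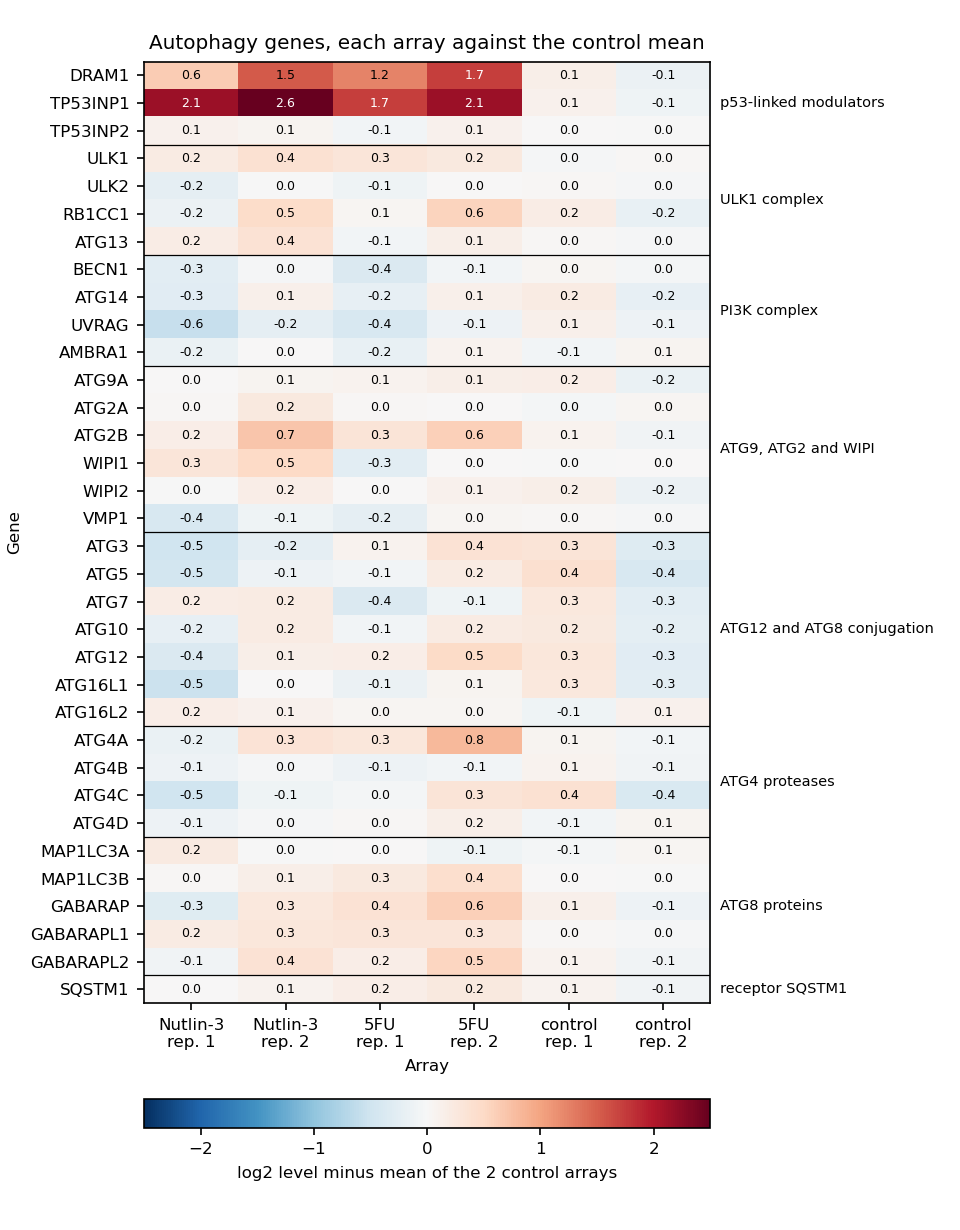
Log2 level of each of the 34 genes (rows, grouped by role) on each of the 6 arrays (columns: Nutlin-3, 5FU, control), as the difference from the mean of the 2 control arrays. TP53INP1 and DRAM1 are high on all treated arrays, while most other rows stay pale, and some rows differ between replicate 1 and replicate 2 as much as between groups.

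As a check that the drugs acted, MDM2, the ubiquitin ligase that p53 induces, read 10.26 and 10.67 log2 units in Nutlin-3 arrays, 10.04 and 10.31 in 5FU arrays, and 8.64 and 8.57 in control arrays. It rose 3.63-fold with Nutlin-3 (limma adjusted p = 0.0099) and 2.96-fold with 5FU (limma adjusted p = 0.0283). CDKN1A, the cell cycle inhibitor p21, rose 4.27-fold and 3.43-fold (limma adjusted p = 0.00308 and 0.00751). With either control array or either 5FU array left out, neither gene was called with 5FU (limma adjusted p 0.0508 to 0.236). MDM2 was not called with Nutlin-3 without control replicate 1 (limma adjusted p = 0.0651). All 11 epithelial marker genes were measured, and their mean per array lay between 8.0 and 8.08 log2 units over the 6 arrays. That mean was uneven over its genes: in control arrays KRT8 and KRT18 averaged 11.15 and 11.02, but LGALS4 and CEACAM5 only 6.19 and 6.22. KRT20 and VIL1, markers of differentiated colon cells, read 5.52 to 5.89. The array means of fibroblast markers (6 of 7 measured) lay between 6.42 and 6.63 and those of blood markers (4 of 7) between 6.54 and 6.95. LGALS4, CEACAM5, KRT20 and VIL1 thus read below those means. The fibroblast marker COL1A1, at 7.21 and 7.38 in control arrays, read above these epithelial genes. The list means therefore do not separate the cell types gene by gene. The files hold no detection call that would mark a gene as absent. In bulk RNA, fewer cells with a transcript and less of it per cell cannot be told apart.

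The promoters of DRAM1 and GABARAPL1 are shown as RefSeq gives them on assembly GRCh38.p14, 250 bases up to the start site, because DRAM1 is the p53-linked modulator with the larger spread and GABARAPL1 is the one member whose window held the p53 half-site consensus. The DRAM1 window lies at chr12:101877330-101877579 and that of GABARAPL1 at chr12:10212627-10212876, both on the plus strand, and capitals mark the half-site.
DRAM1: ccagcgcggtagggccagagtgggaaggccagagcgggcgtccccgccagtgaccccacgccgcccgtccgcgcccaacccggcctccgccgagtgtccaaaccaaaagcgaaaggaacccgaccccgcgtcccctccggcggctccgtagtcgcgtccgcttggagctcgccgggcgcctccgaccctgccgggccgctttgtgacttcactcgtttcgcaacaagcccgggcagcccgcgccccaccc
GABARAPL1: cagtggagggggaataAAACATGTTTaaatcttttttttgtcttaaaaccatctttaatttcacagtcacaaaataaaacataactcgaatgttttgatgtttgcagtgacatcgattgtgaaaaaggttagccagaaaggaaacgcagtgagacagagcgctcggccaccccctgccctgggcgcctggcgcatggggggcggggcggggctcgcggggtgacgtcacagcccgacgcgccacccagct
The half-site, AAACATGTTT, begins 234 bases before the GABARAPL1 start, and the DRAM1 window held 0 matches. Of 35116 promoter windows of this length, 1957 (5.57%) held the half-site on either strand. Of the 35 windows that belong to 29 matched members, 1 did. A match is a description of these letters and not a site, and p53 sites outside these windows, such as those in first introns, were not looked at.

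TP53INP1 read 8.86 and 9.27 log2 units in Nutlin-3 arrays, 8.45 and 8.86 in 5FU arrays, and 6.82 and 6.61 in control arrays. All 4 treated arrays were well above both controls, and the lower Nutlin-3 array and the higher 5FU array both read 8.86. It rose by 2.35 on the log2 scale with Nutlin-3 (95% interval 1.86 to 2.83), which is 5.10-fold (limma adjusted p = 0.00788). With 5FU it rose by 1.94 (1.45 to 2.42), or 3.83-fold (limma adjusted p = 0.026). The direct difference between the drugs was 0.41 higher with Nutlin-3, with an interval of -0.07 to 0.90 and a limma adjusted p of 0.458. It was called in 1 of 15 alternatives, a block on the replicate numbers with those of control crossed that was chosen after seeing the data (limma adjusted p = 0.0322). Without control replicate 1 the Nutlin-3 call was lost at a log2 difference of 2.45 (limma adjusted p = 0.0553). The 5FU call was lost without either 5FU array or either control array, at limma adjusted p-values of 0.0950 to 0.203 and log2 differences of 1.73 to 2.14.

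The exon array reads TP53INP1 through 7 probe sets, and 6 of them had both Nutlin-3 arrays and both 5FU arrays above both control arrays. Of all probe sets used, 16.8% with Nutlin-3 and 19.3% with 5FU lay wholly above control. Probe sets of one gene are read on the same arrays and are not replicates. The TP53INP1 log2 differences ran up to 3.39 with Nutlin-3 (median of the 7, 2.66) and up to 2.81 with 5FU (median 2.24). The other probe set read 8.04 and 8.53 in Nutlin-3 arrays, 8.10 and 8.05 in 5FU arrays, and 7.80 and 8.34 in control arrays. That stretch of the gene therefore did not separate the groups, and it differed by 0.21 with Nutlin-3 and -0.00 with 5FU. NDUFAF6, a gene for a mitochondrial complex I assembly factor that overlaps TP53INP1 in the annotation, differed by -0.23 with Nutlin-3 and 0.10 with 5FU (limma adjusted p = 0.831 and 0.958).

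**Figure D2:**
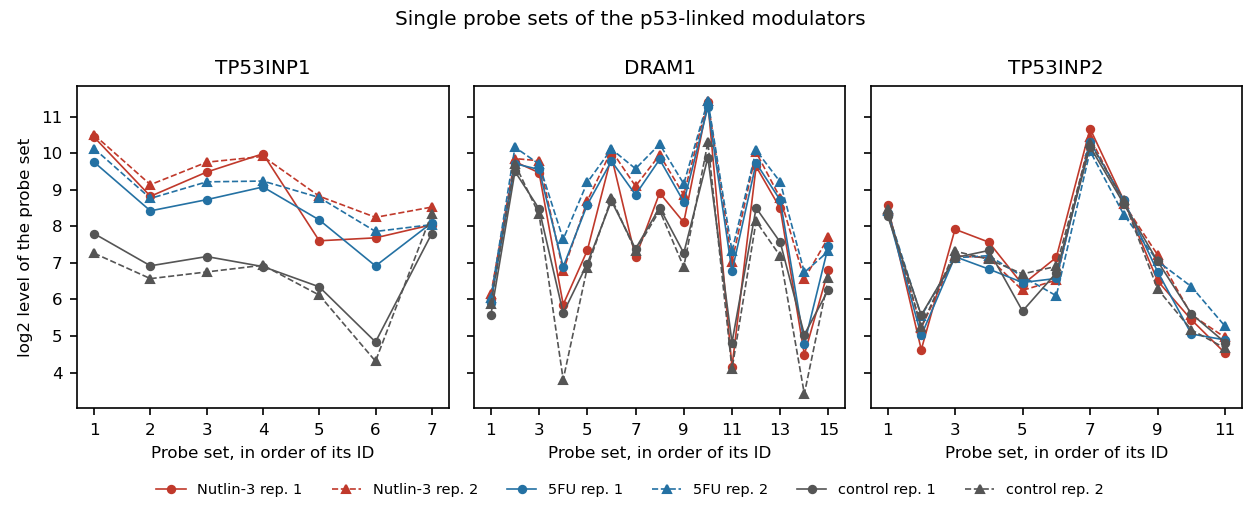
Log2 level (vertical axis) of each used probe set of TP53INP1, DRAM1 and TP53INP2, in order of its identifier, on every array (red Nutlin-3, blue 5FU, grey control; circles replicate 1, triangles replicate 2). In TP53INP1 the treated lines run above the control lines up to probe set 7, where they meet; in DRAM1 Nutlin-3 replicate 1 falls near the controls in some probe sets; in TP53INP2 the lines overlap.

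DRAM1 read 7.83 and 8.72 log2 units in Nutlin-3 arrays, 8.43 and 8.93 in 5FU arrays, and 7.34 and 7.05 in control arrays. Neither drug's arrays overlapped the controls, but the Nutlin-3 arrays lay 0.89 apart, which was the widest gap between Nutlin-3 replicates among the 34 members. The difference from control was 1.08 on the log2 scale with Nutlin-3 (95% interval 0.36 to 1.81, 2.12-fold, limma adjusted p = 0.237). With 5FU it was 1.49 (0.76 to 2.22, 2.81-fold, limma adjusted p = 0.133). Nutlin-3 minus 5FU was -0.41, with an interval of -1.13 to 0.32. Its direction rested on single arrays: it was 0.04 without Nutlin-3 replicate 1 and -0.85 without Nutlin-3 replicate 2. The Nutlin-3 difference was 0.64 without Nutlin-3 replicate 2 and 1.52 without Nutlin-3 replicate 1. The 5FU difference was called when low probe sets were filtered at the upper quartile (1.40, limma adjusted p = 0.0415) or arrays were centred on their gene median (1.46, limma adjusted p = 0.0462).

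All 15 DRAM1 probe sets used were above control on average with each drug. Of these, 12 had Nutlin-3 arrays wholly above control and 14 had 5FU arrays wholly above it. Over all probe sets on the array that were used, 16.8% with Nutlin-3 and 19.3% with 5FU lay wholly above control. The DRAM1 probe sets ran from 0.21 to 1.60 with Nutlin-3 (median 1.23) and from 0.25 to 2.59 with 5FU (median 1.56). The spread of the Nutlin-3 pair was uneven along the gene. One probe set read 11.39 and 11.43 in Nutlin-3 arrays, 11.25 and 11.44 in 5FU arrays, and 9.88 and 10.30 in control arrays. The next one by identifier read 4.16 and 7.04 in Nutlin-3 arrays, 6.77 and 7.32 in 5FU arrays, and 4.82 and 4.10 in control arrays.

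TP53INP2, a paralogue of TP53INP1 that shuttles from the nucleus and binds ATG8 proteins, read 7.10 and 7.05 log2 units in Nutlin-3 arrays, 6.92 and 7.10 in 5FU arrays, and 7.0 and 6.99 in control arrays. It differed by 0.08 with Nutlin-3 (95% interval -0.23 to 0.39) and 0.02 with 5FU (-0.30 to 0.33), with limma adjusted p = 0.931 and 0.992. The intervals hold no difference as large as 2-fold in either direction.

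The 32 members other than TP53INP1 and DRAM1 had log2 differences of -0.40 to 0.43 with Nutlin-3 and -0.27 to 0.55 with 5FU. The 95% interval stayed within 2-fold for all 32 with Nutlin-3 and for 31 with 5FU. Over all genes tested it did so for 91.6% and 92.0%. The exception was ATG4A, a protease that trims ATG8 proteins, with 6.36 and 6.88 log2 units in Nutlin-3 arrays, 6.82 and 7.35 in 5FU arrays, and 6.62 and 6.46 in control arrays. Its 5FU difference was 0.55 (interval -0.01 to 1.11, limma adjusted p = 0.481). At an unadjusted p below 0.05, 3 of the 34 members passed with Nutlin-3 (TP53INP1, DRAM1 and WIPI1) and 3 with 5FU (TP53INP1, DRAM1 and MAP1LC3B), where 10.2% and 10.7% of all genes did. Arrays did not overlap control for 11 of 34 members with each drug, against 34.2% of all genes with Nutlin-3 and 38.0% with 5FU. The median difference over the 34 was 0.06 with Nutlin-3 and 0.07 with 5FU, and over all genes it was 0.0006 and 0.0014.

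**Figure D3:**
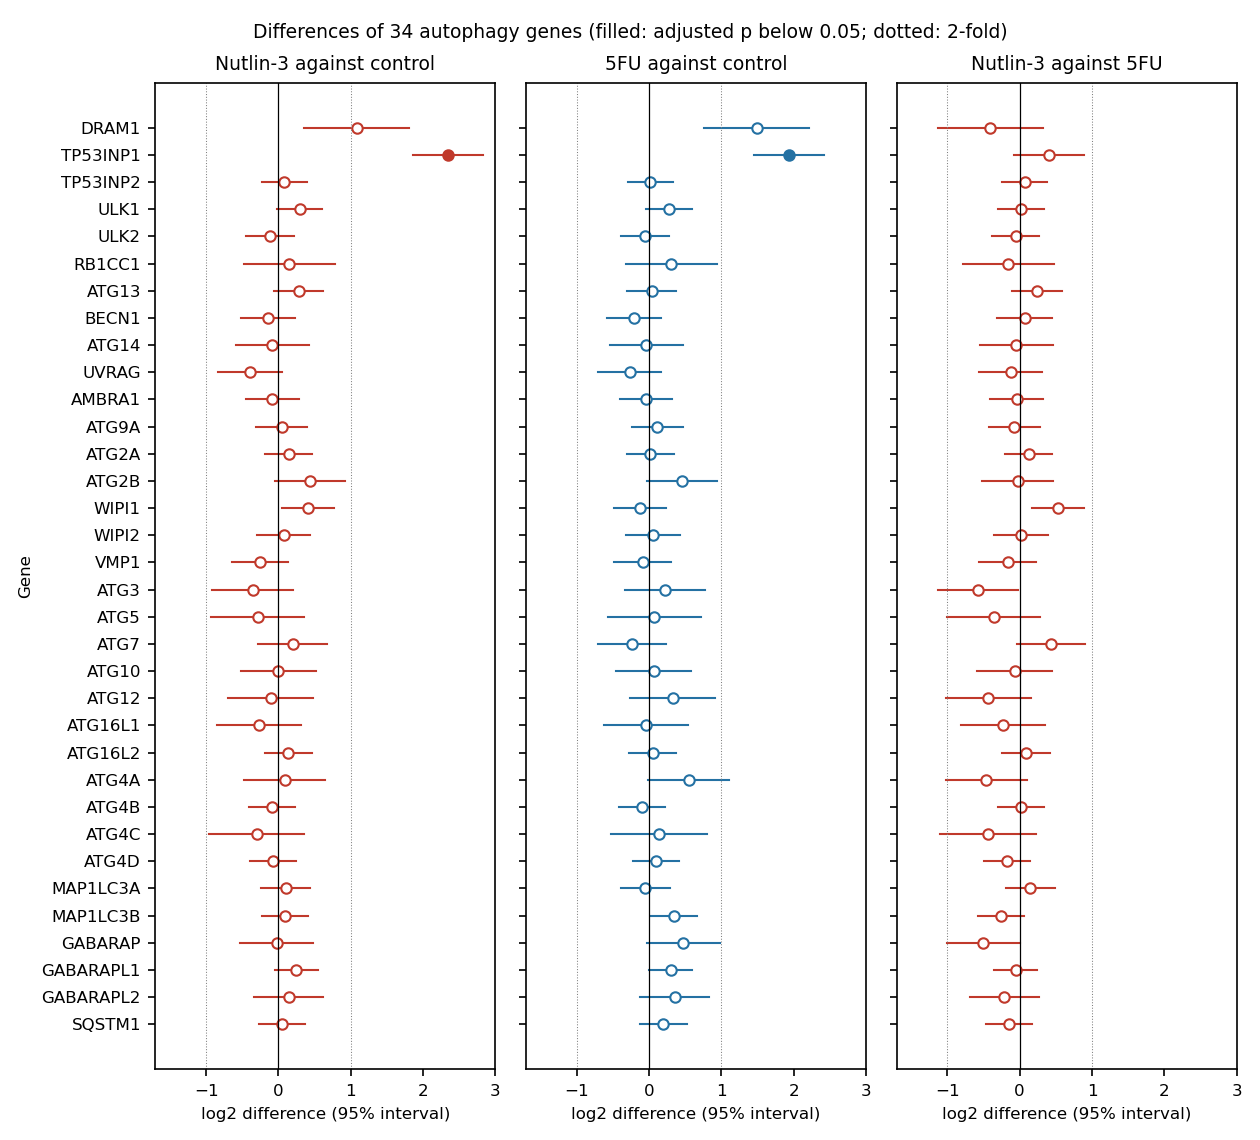
Log2 difference and 95% interval of the 34 members by role, for Nutlin-3 against control, 5FU against control and Nutlin-3 against 5FU. TP53INP1 stands at 2.35 and 1.94 against control and DRAM1 at 1.08 and 1.49, and the others lie between -0.40 and 0.55 against control.

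In the ULK1 complex, which starts autophagosome formation, 0 of 4 members passed in either drug, by adjusted or by unadjusted p in limma. Over all genes, 1.22% with Nutlin-3 and 0.448% with 5FU were called, and 10.2% and 10.7% had an unadjusted p below 0.05. At those shares, 0 of 4 does not set these members apart. The kinase ULK1 read 7.71 and 7.87 log2 units in Nutlin-3 arrays, 7.81 and 7.74 in 5FU arrays, and 7.46 and 7.53 in control arrays. Both drugs' arrays were above control, by 0.29 and 0.28 (limma adjusted p = 0.542 and 0.548). ATG13, a regulatory subunit, differed by 0.28 with Nutlin-3 and 0.04 with 5FU. The scaffold RB1CC1 differed by 0.15 and 0.31, and its intervals of -0.48 to 0.78 and -0.32 to 0.94 were among the wider ones. ULK2, a second kinase of the family, differed by -0.11 and -0.06.

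In the lipid kinase group, 0 of 4 passed by adjusted or unadjusted p in limma, where 10.2% and 10.7% of all genes had an unadjusted p below 0.05. All 4 had a mean below control with each drug, but the group does not hold the whole complex. Of its genes tested in a wider list, PIK3C3 differed by 0.18 with Nutlin-3 and -0.31 with 5FU. NRBF2 differed by -0.20 and 0.35, and PIK3R4 by -0.51 and -0.23. UVRAG, a BECN1 partner in endosomal and late autophagic steps, read 6.27 and 6.63 log2 units in Nutlin-3 arrays, 6.44 and 6.71 in 5FU arrays, and 6.98 and 6.71 in control arrays. It had the lowest difference of the 34 with either drug, at -0.40 and -0.27 (limma adjusted p = 0.563 and 0.739). The scaffold BECN1 differed by -0.15 and -0.21, the membrane-targeting subunit ATG14 by -0.08 and -0.04, and the BECN1 regulator AMBRA1 by -0.09 and -0.04.

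Among the lipid-supply and membrane proteins, WIPI1, which binds the lipid that the kinase complex makes, read 8.12 and 8.31 log2 units in Nutlin-3 arrays, 7.55 and 7.81 in 5FU arrays, and 7.79 and 7.82 in control arrays. The Nutlin-3 arrays were above all others. The difference was 0.41 with Nutlin-3 against control (95% interval 0.05 to 0.77, limma adjusted p = 0.404) and -0.12 with 5FU (limma adjusted p = 0.904). All 17 of its probe sets were above control on average with Nutlin-3. Of these, 11 lay wholly above control, where 16.8% of all probe sets used did. They are read on the same arrays and are not replicates. ARSG, a sulfatase gene that overlaps WIPI1, differed by 0.22 with Nutlin-3 and -0.47 with 5FU (limma adjusted p = 0.755 and 0.32), with the same signs as WIPI1, and its part in the WIPI1 values was not tested. PRKAR1A, a protein kinase A subunit gene that also overlaps WIPI1, differed by -0.03 and -0.09 (limma adjusted p = 0.981 and 0.933). Of the others, ATG2B, a lipid transfer protein, read 5.99 and 6.51 in Nutlin-3 arrays, 6.14 and 6.41 in 5FU arrays, and 5.90 and 5.73 in control arrays. Its differences of 0.43 and 0.46 did not pass (limma adjusted p = 0.566 and 0.498). VMP1, an endoplasmic reticulum membrane protein needed for autophagosomes whose gene overlaps MIR21, differed by -0.25 and -0.09. ATG9A, ATG2A and WIPI2 differed by 0.14 or less with either drug.

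The conjugation enzymes and ATG4 proteases held 0 of 11 members that passed with either drug, by adjusted or unadjusted p in limma. The shares over all genes were 1.22% and 0.448% called, and 10.2% and 10.7% with an unadjusted p below 0.05. At those shares, 0 of 11 does not set these members apart. The control pair was wide for several of them. ATG5, part of the complex that attaches ATG8 proteins to lipid, read 7.37 and 7.71 log2 units in Nutlin-3 arrays, 7.76 and 8.03 in 5FU arrays, and 8.22 and 7.43 in control arrays. The control arrays enclosed 3 of the 4 treated values. The E2-like enzyme ATG3 read 7.86 and 8.15 in Nutlin-3 arrays, 8.44 and 8.72 in 5FU arrays, and 8.68 and 8.04 in control arrays. ATG3 differed from control by -0.36 with Nutlin-3 and 0.22 with 5FU. The E1-like enzyme ATG7 differed by 0.20 and -0.24, the ubiquitin-like ATG12 by -0.11 and 0.33, and ATG16L1, which places the complex on the membrane, by -0.26 and -0.04. The protease ATG4C differed by -0.30 and 0.14, and its relatives ATG4B and ATG4D lay between -0.10 and 0.10. ATG10, the E2-like enzyme of ATG12, differed by -0.00 and 0.07, and ATG16L2, a paralogue of ATG16L1, by 0.14 and 0.05.

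The ATG8 proteins, which coat the autophagosome and hold cargo receptors, had a median difference of 0.10 with Nutlin-3 and 0.34 with 5FU. Of the 5, 2 with Nutlin-3 and 4 with 5FU had arrays wholly above control, where 16.2% and 20.0% of all genes had, but 0 were called (limma; at an unadjusted p below 0.05, 0 with Nutlin-3 and 1 with 5FU). MAP1LC3B, the LC3B gene, read 6.61 and 6.71 log2 units in Nutlin-3 arrays, 6.82 and 7.0 in 5FU arrays, and 6.58 and 6.56 in control arrays. The 5FU difference was 0.34 (95% interval 0.02 to 0.66, limma adjusted p = 0.431). All 4 MAP1LC3B probe sets had 5FU arrays wholly above control, where 19.3% of all probe sets used had. GABARAP read 9.29 and 9.85 in Nutlin-3 arrays, 9.96 and 10.19 in 5FU arrays, and 9.72 and 9.48 in control arrays. The 5FU arrays were above both controls by 0.48 on average (-0.03 to 0.98, limma adjusted p = 0.505) and in all 9 probe sets, while the Nutlin-3 arrays lay on either side of the controls. GABARAPL1, whose promoter is printed above, differed by 0.25 with Nutlin-3 and 0.30 with 5FU (limma adjusted p = 0.612 and 0.466). GABARAPL2 differed by 0.14 and 0.35, and MAP1LC3A, the LC3A gene, by 0.10 and -0.05. MAP1LC3B and GABARAPL1 have near-identical gene copies elsewhere in the genome, so their probe sets may share signal with those copies. The cargo receptor SQSTM1 (p62) differed by 0.05 and 0.20 (limma adjusted p = 0.963 and 0.732).

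Nutlin-3 and 5FU were also compared directly. Of the 34 members, 2 passed an unadjusted p below 0.05, where 13.3% of all genes did, and arrays did not overlap for 16 of the 34, where 46.0% of all genes did not. WIPI1 was 0.53 higher with Nutlin-3 (95% interval 0.17 to 0.89, limma adjusted p = 0.207), with 14 of its 17 probe sets wholly above 5FU. ATG3 was lower with Nutlin-3, at -0.58 (-1.13 to -0.02, limma adjusted p = 0.36), with 13 of 17 probe sets wholly below. Over all probe sets used, 20.3% lay wholly above and 22.5% wholly below in this comparison. Similar sizes that did not pass were seen for GABARAP at -0.50, ATG4A at -0.46, ATG4C at -0.44, ATG12 at -0.43 and ATG7 at 0.43. Of the 32 members other than TP53INP1 and DRAM1, 27 had an interval within 2-fold in this comparison, so for the other 5 a 2-fold difference between the drugs lies inside the interval. Replicate differences of the 2 drugs correlated at 0.634 across genes, and this fit did not pair their arrays by number. A shift shared by number therefore counts as spread in these intervals, and a paired fit of the 2 drugs alone was not run.

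Replicate 2 read higher than replicate 1 in 31 of the 34 members in Nutlin-3 arrays and 30 of 34 in 5FU arrays, but in 7 of 34 in control arrays. Over all genes the shares were 59.5%, 60.5% and 47.2%. The members thus moved together between arrays of one group, by a median of 0.22 in Nutlin-3 arrays, 0.26 in 5FU arrays and -0.18 in control arrays. The part of this replicate shift in the differences above was not tested. It is as large as many of those differences.

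Of the 34 members, 9 (ULK1, ULK2, ATG2B, ATG4A, ATG4C, ATG7, ATG10, UVRAG and VMP1) have been reported as p53-responsive in mouse fibroblasts. Of these 9, limma called 0 with either drug, and 0 had an unadjusted p below 0.05. Over all genes, 1.22% with Nutlin-3 and 0.448% with 5FU were called, and 10.2% and 10.7% had such an unadjusted p. With shares that low, 0 of 9 is not a result about these genes. Arrays did not overlap control for 4 of the 9 with Nutlin-3 and 3 with 5FU, where 34.2% and 38.0% of all genes did not. The median difference of the 9 was -0.002 with Nutlin-3 and 0.07 with 5FU.

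**Figure D4:**
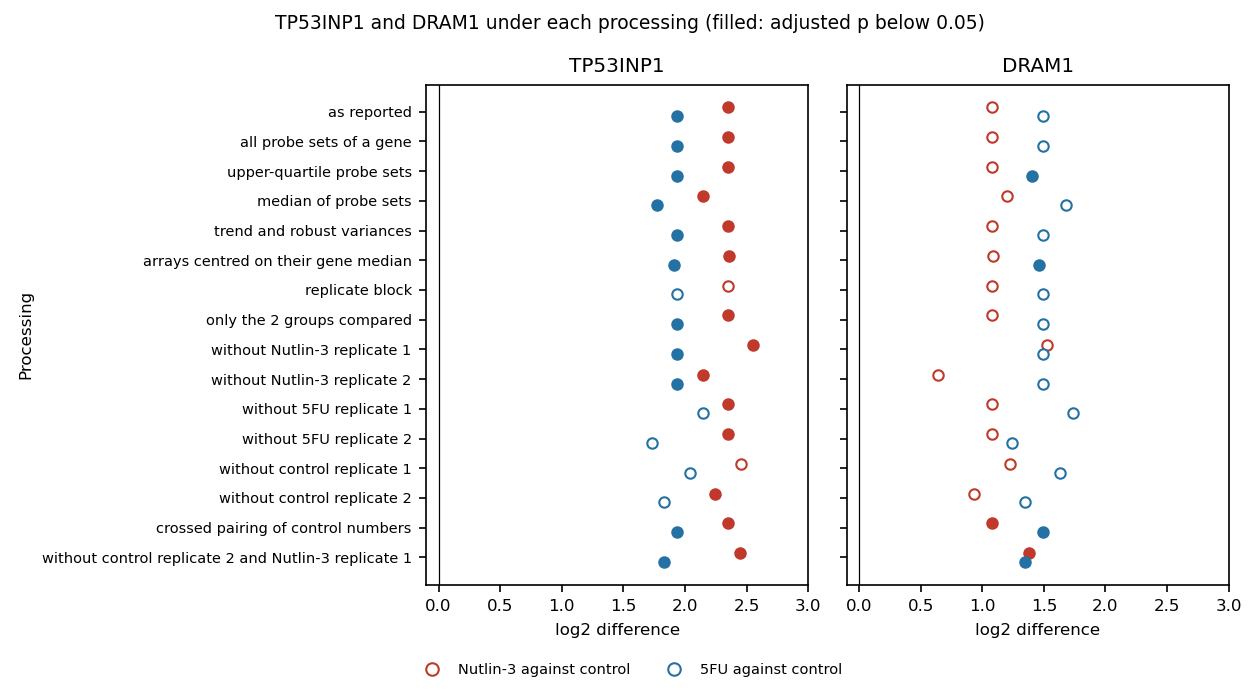
Log2 difference from control of TP53INP1 and DRAM1 under each processing, with Nutlin-3 and with 5FU (filled points: limma adjusted p below 0.05). TP53INP1 stays between 2.14 and 2.55 with Nutlin-3 and between 1.73 and 2.14 with 5FU, and DRAM1 is above 0 throughout but seldom called. With Nutlin-3, DRAM1 is called only under settings chosen after seeing the data.

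Among genes around the pathway, calls fell in the list of mTORC1 and AMPK regulators, the kinases that switch autophagy off and on. That list was chosen with earlier results of these data known, so the place of the calls is a description and not a test. Of its 25 tested genes, 2 rose with Nutlin-3, 1 rose with 5FU and 0 fell with either. At an unadjusted p below 0.05 there were 7 with Nutlin-3 and 9 with 5FU, and the list's median difference was 0.03 and 0.08. Over all genes, 1.22% and 0.448% were called, 10.2% and 10.7% had such an unadjusted p, and the medians were 0.0006 and 0.0014. DDIT4, which encodes REDD1, a stress-induced brake on mTORC1, read 8.87 and 9.22 log2 units in Nutlin-3 arrays, 7.86 and 8.03 in 5FU arrays, and 7.42 and 7.43 in control arrays. It rose 3.08-fold with Nutlin-3 (limma adjusted p = 0.0099), and its 5FU difference of 0.52 did not pass (limma adjusted p = 0.307). Nutlin-3 against 5FU, DDIT4 was 2.15-fold higher (log2 1.10, limma adjusted p = 0.0442). The Nutlin-3 call against control was lost without control replicate 1 (limma adjusted p = 0.0679). The call between the drugs was lost without any single array (limma adjusted p 0.0642 to 0.307).

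SESN1 and SESN2 encode sestrins, p53-inducible proteins that restrain mTORC1. SESN1 read 8.32 and 8.43 log2 units in Nutlin-3 arrays, 8.36 and 8.73 in 5FU arrays, and 7.19 and 6.44 in control arrays. It rose 2.95-fold with Nutlin-3 (limma adjusted p = 0.0446), a call that was lost without any single array (limma adjusted p 0.0527 to 0.148), and its 5FU difference was 1.74 (limma adjusted p = 0.056). SESN2 read 7.93 and 8.08 in Nutlin-3 arrays, 8.33 and 8.29 in 5FU arrays, and 7.35 and 7.19 in control arrays. It rose 2.06-fold with 5FU (limma adjusted p = 0.0385), again lost without any single array (limma adjusted p 0.0558 to 0.312), and its Nutlin-3 difference was 0.74 (limma adjusted p = 0.0648). The largest fall in that list was RHEB, the GTPase that activates mTORC1, with Nutlin-3 (-0.50, limma adjusted p = 0.652) and CAMKK2, an AMPK-activating kinase, with 5FU (-0.74, limma adjusted p = 0.117), and neither passed.

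The remaining lists held 0 called genes with either drug in limma. Among all genes, 1.22% with Nutlin-3 and 0.448% with 5FU were called, and 10.2% and 10.7% had an unadjusted p below 0.05. Of 12 other core autophagy genes tested, 3 had an unadjusted p below 0.05 with Nutlin-3 and 1 with 5FU, and the highest value was ZFYVE1, which encodes a marker of autophagosome birth sites, at 0.58 and 0.52. The lowest were PIK3R4, a subunit of the lipid kinase complex, with Nutlin-3 (-0.51) and TMEM41B, a lipid scramblase, with 5FU (-0.34). Of 20 selective autophagy receptors, 2 and 3 did, led by OPTN, a mitophagy receptor, at 0.39 and 0.52, with SEC62 the lowest with Nutlin-3 (-0.33) and PHB2 with 5FU (-0.21). Of 13 fusion genes, 1 and 3 did. The highest of these, VAMP8, a SNARE that joins the autophagosome to the lysosome, read 8.85 and 9.06 log2 units in Nutlin-3 arrays, 8.95 and 9.20 in 5FU arrays, and 8.38 and 8.24 in control arrays. The treated arrays did not overlap control, and the differences were 0.64 and 0.77 (limma adjusted p = 0.147 and 0.126). SNAP29, its SNARE partner, was the lowest with Nutlin-3 (-0.32) and VPS33A, a tethering subunit, with 5FU (-0.47). Of 34 lysosomal genes, 4 and 2 did, with the highest values for GRN with Nutlin-3 (0.53) and ATP6V1D, a proton pump subunit, with 5FU (0.64), and the lowest for GLA, a lysosomal hydrolase, with Nutlin-3 (-0.60) and ATP6V1H, another pump subunit, with 5FU (-0.32).

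**Figure D5:**
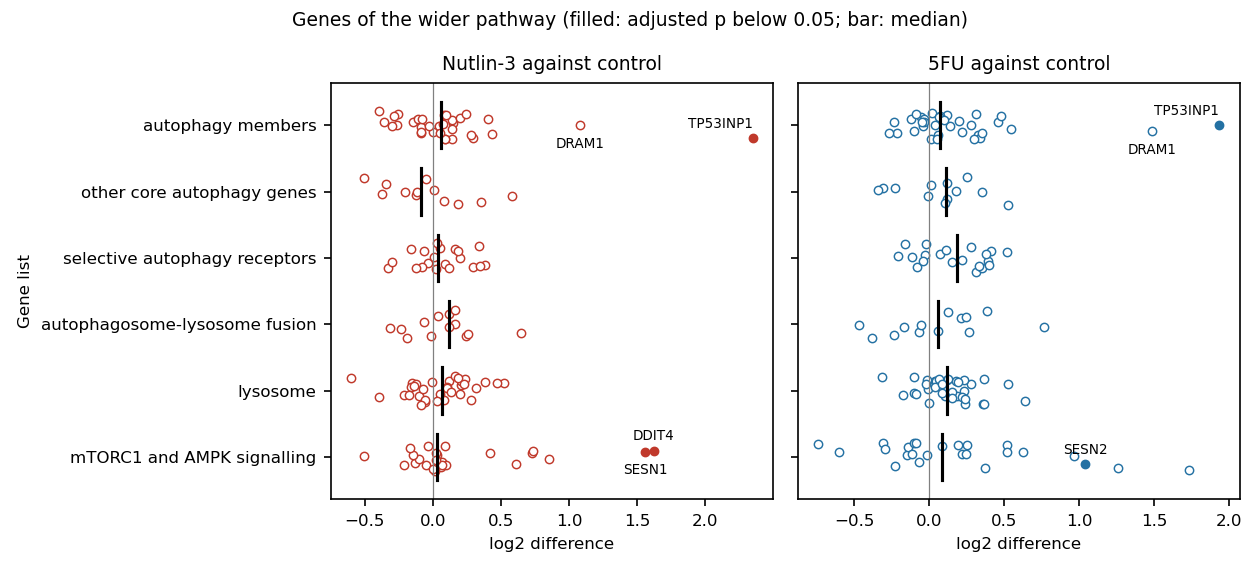
Log2 difference from control of the genes of each list, with Nutlin-3 and with 5FU (filled points: limma adjusted p below 0.05, bars: list median). Filled points are TP53INP1 in both panels, DDIT4 and SESN1 with Nutlin-3, and SESN2 with 5FU, and the list medians lie between -0.08 and 0.19.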

How the data were processed

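The deposited values are log2 expression per probe set, made with RMA per the submitters' processing notes; no version, setting, slide or scan day was found for them. The labels name a PicoPure kit for RNA and the design text RNeasy. The platform annotation gave 1 symbol to 357604 of 1411399 probe sets, and only these were used; 4 members stood under older symbols (DRAM for DRAM1). Names were updated through RefSeq (GRCh38.p14). A gene's value was the mean of its probe sets whose own mean exceeded the median of all probe sets (4.73), with at least 2 required; the members kept 736 of 835 probe sets, 4 to 51 each. Probe sets of 12 members lie in genes that overlap another protein-coding gene. The 3 groups were fitted in 1 model with limma 3.58.1 (R 4.3.3; lmFit and eBayes, 3 residual degrees of freedom, median residual SD 0.161) and tested with Benjamini-Hochberg adjustment over 17841 genes. The script was tested on simulated data. RMA values carry no counts, and it is the number of arrays that limits the precision: an exact permutation test of 2 arrays against 2 cannot go below 0.333, and every call leans on limma's pooled variance. Both drugs share the control arrays. The members, the lists and the tests were chosen with earlier results of these data known. All 34 members are named; of each wider list, the called genes, or otherwise the highest and lowest, are named. Results were also recomputed with other probe-set filters, a median summary, centred arrays and moderated variances with a trend. They were recomputed too with a replicate block, 2 groups at a time and without each array. Leaving out an array of the group not compared repeats the fit of 2 groups at a time. These repeats are counted among the 15 alternatives and are not separate checks. Array medians lay between 4.73 and 4.78, and arrays correlated at 0.92 to 0.981. Across genes, the replicate differences of same-numbered arrays correlated at 0.634 between Nutlin-3 and 5FU, but at -0.565 between Nutlin-3 and control and -0.525 between 5FU and control. Since the control numbers ran against both drugs and no label says that a number marks a shared batch, the numbers were not taken as pairs.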

Additional observations from a re-analysis of the deposited data

Results flagged for a closer look

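DDIT4 differed between the drugs by a test of the difference itself: it was 1.10 higher on the log2 scale in Nutlin-3 arrays than in 5FU arrays (limma adjusted p = 0.0442, 2 arrays each), with both Nutlin-3 arrays above both 5FU arrays. It was called under 4 of 15 alternative settings, and over all 15 its log2 difference ran from 0.93 to 1.28. The 15 include 2 that were chosen after seeing the data. The call was lost when any single array was left out, and also with the replicate block.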

How the results depend on the processing

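The 34 members gave 1527 differences over 15 alternatives. Of these, 1501 kept their side of the threshold, 7 lost a call, 19 gained one and 0 called values changed sign. The sign changed in 132 uncalled differences, each at most 0.44 as reported. The 15 include 2 settings chosen after seeing the data, described below. These 2 gave every gained call except those of DRAM1 with 5FU under upper-quartile probe sets and centred arrays. None of the 7 lost calls came from them. TP53INP1 was called with Nutlin-3 in 13 of 15 alternatives and with 5FU in 10 of 15, and DRAM1 in 2 and 4. Both DRAM1 calls with Nutlin-3 came from the 2 settings chosen after seeing the data. With 5FU those 2 settings also called DRAM1, beside upper-quartile probe sets and centred arrays. They called TP53INP1 with each drug too. With Nutlin-3 the members called were 0 with the replicate block and 0 to 1 without each array; with 5FU they were 0 with the block, 0 to 1 without each array, 2 with upper-quartile probe sets and 2 with centred arrays. Genes called with Nutlin-3 were 217 as reported, 380 with upper-quartile probe sets, 381 with centred arrays, 2 with the block and 5 to 149 without each array. With 5FU they were 80, and 151, 177, 1 and 1 to 63, and 39 with the median of probe sets. Nutlin-3 against 5FU gave 113, and 234, 297, 0 and 3 to 104, and 69 both with all probe sets and with the median. With the replicate block, the limma adjusted p of TP53INP1 was 0.0637 with Nutlin-3 and 0.142 with 5FU; the numbers of the drug arrays went together, and the control numbers ran against them. An alternative chosen after seeing the data crossed the control numbers in the block, because they ran against the treated ones: it called 4, 5 and 8 members and 1788, 1882 and 2821 genes with Nutlin-3, with 5FU and between them. The 8 members called between the drugs, beside 2821 of all 17841 genes tested, were TP53INP1, WIPI1, ATG3, ATG7, ATG12, ATG4A, ATG4C and GABARAP. The crossed pairing was chosen from the replicate differences of these same arrays. These calls are therefore no independent evidence that the members differ between the drugs. Another, also chosen afterwards, left out control replicate 2 and Nutlin-3 replicate 1, and called 2 members with Nutlin-3 and 2 with 5FU, and 580, 592 and 650 genes in the 3 comparisons. That fit keeps 1 control array and 1 Nutlin-3 array, so its spread between replicates comes from the 5FU pair alone. Its calls are therefore no evidence that any of the groups differ. The causes of these changes were not tested. Values near the array median may lie close to background, which was not measured and would limit the dim probe sets.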

Other observations

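The E-box letters CACGTG, on either strand, stood in the 250 bases before the start of 2 members, ATG14 and ATG3, and in 6.34% of all 35116 promoter windows. Neither gene was called with either drug. PRKAB1 and PRKAB2, genes for the beta subunits of AMPK, had log2 differences of 0.61 and 0.73 with Nutlin-3 and 0.97 and 1.26 with 5FU, with limma adjusted p-values of 0.181, 0.22, 0.075 and 0.0725 in that order. They were singled out after their values were seen.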
